A study of Mus musculus with 8 samples.

Results

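Cartilage cells outside the cell cycle were described in single-cell RNA sequencing libraries of parietal bone, the flat bone of the skull vault, from mouse pups aged 4 to 5 days. A cell was taken as a non-cycling cartilage cell when Col2a1, the gene of the type II collagen chain, made up over 1% of its unique molecular identifiers (UMIs, tags that count single mRNA molecules). At most 1 of the 6 cell cycle genes Mki67, Top2a, Cdk1, Ccnb1, Cenpf and Birc5 could be detected, and cells with an osteoblast pattern were left out (10 or more UMIs of Col1a1 together with 2 or more of each of any 2 of Runx2, Sp7 and Ibsp). The members were chosen by these values, which are therefore given as a description only. The rule found 13995 of the 46420 cells that passed quality control (500 or more genes detected, mitochondrial UMIs below 10%), 7549 in WT libraries and 6446 in Het libraries. All pups were of the strain B6.129(FVB)-Col1a2tm1Mcbr/J. WT pups carried no mutant allele, and Het pups carried 1 mutant Col1a2 allele, which replaces a glycine of the pro-α2(I) triple helix, a mouse model of osteogenesis imperfecta. Each of the 4 WT libraries (S1, S2, S5, S6) and 4 Het libraries (S3, S4, S7, S8) held cells pooled from up to 5 pups that shared a genotype, and libraries served as replicates. S1 to S4 were made with kit version 3 and S5 to S8 with kit version 3.1, and the counting software changed together with the kit.

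Chondrocytes fill their surroundings with a gel of type II, IX and XI collagen fibrils and of aggrecan bound to hyaluronan. The transcription factor SOX9, with SOX5 and SOX6, drives the genes of this matrix. In cartilage that is replaced by bone, chondrocytes stop dividing, enlarge and turn on Col10a1, the type X collagen gene of hypertrophic cartilage. Most of the skull vault forms directly from mesenchyme, without a cartilage model, although cartilage borders it at the skull base and beneath some sutures. Type I collagen, a trimer of pro-α1(I) and pro-α2(I) chains, is the collagen of bone, and its chains are made in bulk by osteoblasts.

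The number of non-cycling cartilage cells differed strongly between the suspensions. There were 89 in WT S1, 122 in WT S2, 673 in Het S3, 1054 in Het S4, 5788 in WT S5, 1550 in WT S6, 2261 in Het S7 and 2458 in Het S8. The 2 WT libraries of kit version 3 thus held the fewest, and their summed counts were also the smallest, 988424 UMIs in S1 and 1109735 UMIs in S2 against 33354359 UMIs in Het S7. The median depth per cell was 4513 to 17333 UMIs in 7 libraries and 1009 UMIs in WT S5. In S5, 3478 cells had under 2000 UMIs, with a median of 787 UMIs. These shallow cells had Col1a1 at 17257 CPM (counts scaled to 1000000 UMIs of the summed cells), close to the 20163 CPM of the cells of S5 outside the cartilage classes, whereas the deeper cartilage cells of S5 had 1020 CPM. Their Col2a1 was at 20675 CPM, against 42677 CPM in the deeper cells. The label of cartilage is thus less certain for the shallow cells of S5, and the comparisons of shares and of gene counts with genotype were repeated without cells under 2000 UMIs. Pairs of libraries shared 2 to 61 cell barcodes, at most 0.663% of a library, and 0 to 4 barcodes of cartilage cells.

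The other markers of cartilage were present in most of the chosen cells. Acan, the gene of aggrecan, was detected in 97.4% to 99.4% of them in 7 libraries and in 76.2% in WT S5. Sox9 was detected in 85.1% to 92.6% in those 7 libraries and in 47.1% in S5, and Matn1, the gene of the cartilage protein matrilin-1, in 84.4% to 97.5% in all 8. All 3 were found together in 41.6% of the cells of S5 and in 86.0% of its cells with at least 2000 UMIs. For background, haematopoietic-like cells, which should lack these genes, showed Acan in 0 to 35.9% of cells, Sox9 in 0 to 24.6% and Matn1 in 0 to 79.1%, at median depths of 1951 to 16373 UMIs. The high share for Matn1 came from kit version 3.1, so detection of Matn1 alone says little there, whereas its level separated the classes. After each cell was thinned to 2000 UMIs, Acan was found in 87.6% to 94.2% and Sox9 in 50.6% to 66.8% of cartilage cells. At the edge of the rule, the 445 cells with Col2a1 between 1% and 1.1% of UMIs and the 447 otherwise eligible cells between 0.9% and 1% were alike in their markers, with Acan in a median of 95.1% and 90.5% of cells over the libraries. WT S5 gave 253 and 239 of them.

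**Figure D1:**
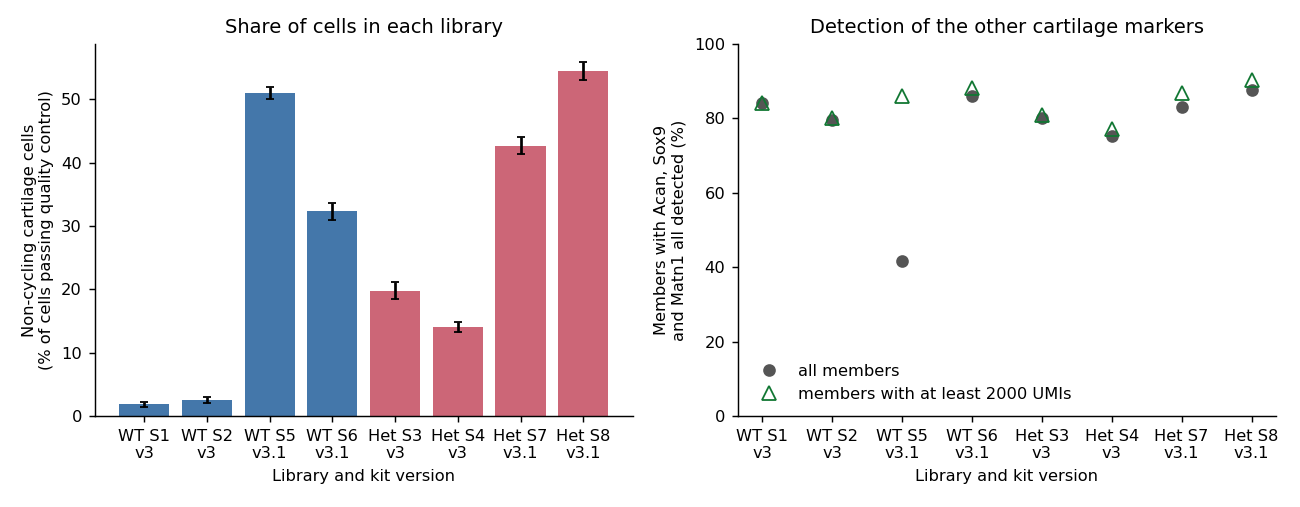
Left, non-cycling cartilage cells as a percent of cells passing quality control in each library, with 95% exact binomial intervals for counting error. Right, percent of these cells in which Acan, Sox9 and Matn1 were all detected, for all cells (circles) and for cells with at least 2000 UMIs (triangles). WT S1 and S2 hold few cartilage cells, 1.86% and 2.57%, and WT S5 stands apart at 41.6% until its shallow cells are left out.

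Many of the 20 most abundant genes of these cells were genes of cartilage matrix. Averaged over the 8 libraries, Col2a1 made up 3.64% ± 0.616 (SD, n = 8) of UMIs, which the rule itself required to be high. Col11a1, a chain of the type XI collagen that nucleates cartilage fibrils, was at 1.52% ± 0.279 (SD, n = 8). The 3 chains of type IX collagen, which decorates the fibril surface, were at 0.862% (Col9a3), 0.584% (Col9a1) and 0.520% (Col9a2), and Col11a2 was at 0.439%. The nuclear noncoding RNA Malat1 was at 2.39%, between Col2a1 and Mgp, an inhibitor of mineralization, at 1.68%. Sparc, a collagen-binding matrix protein, was at 1.21%. Matn1 was at 0.643%, the Snorc gene 3110079O15Rik, which encodes a chondrocyte proteoglycan, at 0.406%, Cnmd (chondromodulin, an inhibitor of vessel growth) at 0.335% and Acan at 0.254%. Each gene named in this paragraph except Sparc was higher in the cartilage cells with at least 2000 UMIs than in the other cells of the same library in all 8 libraries, and Sparc was higher in 6 of 8. The ratio of the 2 levels ran from 15.8 to 416 times for Col2a1, from 21.5 to 541 times for Matn1 and from 6.52 to 108 times for Acan.

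The matrix genes also differed between libraries of the same genotype, mainly between the kit versions. Kit version cannot be told apart here from the counting software and the pools of pups. Matn1 stood at 3001, 5222, 4462 and 5119 CPM in S1 to S4 and at 8824, 8287, 7945 and 8606 CPM in S5 to S8. Sox9 was steady, at 523, 622, 679 and 687 CPM in S1 to S4 and 563, 586, 590 and 666 CPM in S5 to S8. Its partners were not, with Sox5 between 232 and 265 CPM in kit version 3 and between 1223 and 1421 CPM in kit version 3.1, and Sox6 between 161 and 195 CPM and between 1397 and 1537 CPM. Clec3a, the gene of a cartilage lectin, moved from 12.1 to 15.3 CPM in the older kit to between 272 and 312 CPM in the newer one. Of 6078 genes with a mean of at least 20 CPM, 1061 were over 2 times higher and 62 over 2 times lower in kit version 3.1. Both genotypes were present equally in both kit versions, and kit version was a term in every model of gene counts unless stated, but not in the tests of shares.

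Within the population, cells with little and with much Col2a1 differed in many matrix genes, with 15 of 20 proteoglycan and matrix protein genes higher and 3 lower in the cells with much Col2a1 in all 8 libraries. The cells with at least 2000 UMIs were divided at Col2a1 of 2% and 4% of UMIs, which is a further use of the rule's own gene, so the differences are a description without a test. Ucma, which encodes a small secreted protein of young chondrocytes, was at 173 to 704 CPM below 2% and at 1955 to 3406 CPM above 4%. Epyc, the gene of the proteoglycan epiphycan, went from 20.5 to 113 CPM up to 269 to 717 CPM. In neither gene did the ranges of the 8 libraries overlap. Matn1 stood at 1433 to 2416 CPM in the low cells and 6013 to 12935 CPM in the high cells, a mean log2 ratio of 2.24 ± 0.456 (SD, n = 8). Scrg1, Matn3, Acan and Hapln1, the link protein that joins aggrecan to hyaluronan, were higher in the high cells in all 8 libraries, with mean log2 ratios of 2.72, 1.58, 1.38 and 1.27. All 6 other fibrillar and fibril-associated collagens of the list, Col9a1 to Col9a3, Col11a1, Col11a2 and Col27a1, rose with Col2a1 in all 8 libraries, by 0.98 to 1.41.

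Other genes ran the opposite way. Gdf5, a growth factor of developing joints and resting cartilage, was at 25.9 to 111 CPM in cells below 2% and at 2.36 to 15.3 CPM in cells above 4%, a mean log2 ratio of -2.81 ± 0.282 (SD, n = 8). Prg4, which encodes the surface lubricant lubricin, was at a mean of 57.3 CPM in the low cells and 16.0 CPM in the high cells. Erg and Gas1, 2 genes of joint and perichondrial cartilage, had mean log2 ratios of -1.92 and -1.23, lower in all 8 libraries. Of the 12 genes of resting, superficial and perichondrial cartilage, 7 were lower in all 8 libraries and 0 higher in all 8, while Sfrp5 (0.84, higher in 6 libraries) and Lum (0.26, higher in 7) ran the other way and Pthlh (-0.17, lower in 6) was mixed. Matn2 and Matn4 also fell, by 1.88 and 1.44 on the log2 scale, so that the 4 matrilin genes divided into Matn1 and Matn3 in the high cells and Matn2 and Matn4 in the low cells. The SOX trio moved little, with mean log2 ratios of 0.36 (Sox9), 0.04 (Sox5) and -0.05 (Sox6). Among receptors, Fgfr3, the FGF receptor typical of chondrocytes, was higher in the high cells (0.64) and Fgfr2 lower (-0.78), each in 8 of 8 libraries. Col1a1 also fell with Col2a1, from 906 to 2132 CPM in the low cells to 153 to 557 CPM in the high cells, and so did the summed fibroblast markers, from 6.53 to 154 CPM to 0 to 24.4 CPM, and osteoblast markers, from 117 to 921 CPM to 71.8 to 558 CPM, each in all 8 libraries. The summed endothelial markers fell in 7 of 8, with 8.51 and 14.0 CPM in Het S8. Neural and glial markers were lower in the high cells in 7 libraries, haematopoietic markers in 6 and erythroid markers in 5. Smooth muscle or pericyte markers were lower in 1 library and higher in the other 7, at 326 to 636 CPM in the low cells and 448 to 789 CPM in the high cells. Their part in the pattern was not tested. Of 6064 genes with a mean of at least 20 CPM, 413 were higher and 1490 lower in the high cells in all 8 libraries, around a median of -0.18, and a rise in the share of 1 group of genes lowers the share of all others.

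**Figure D2:**
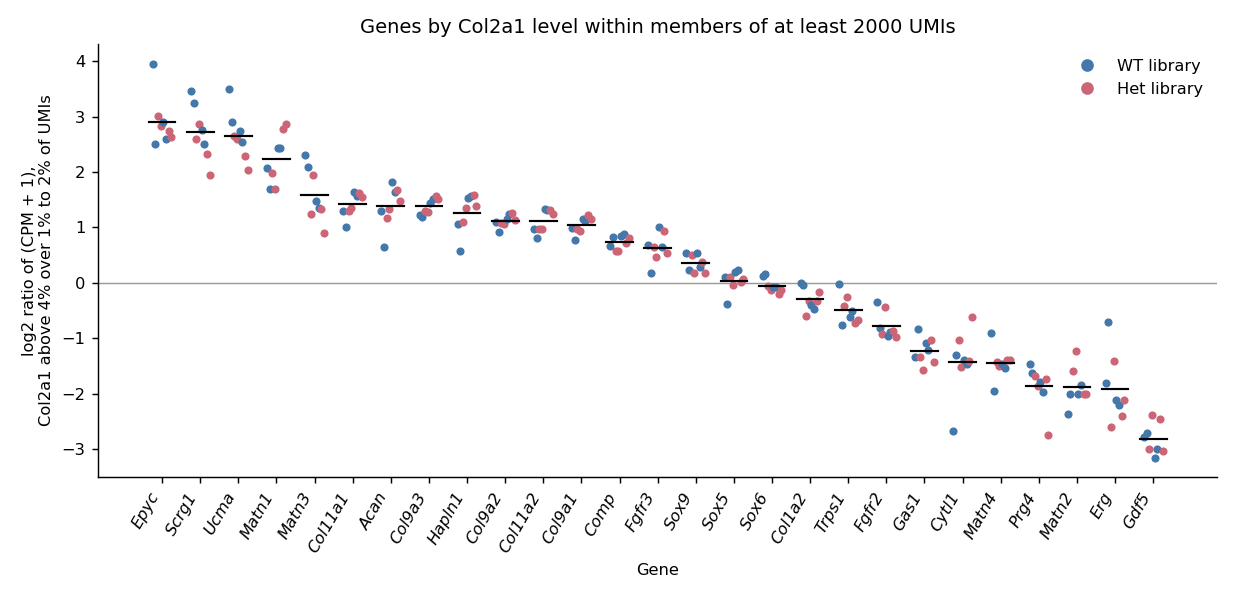
Log2 ratio of the level in cells with Col2a1 above 4% of UMIs to that in cells at 1% to 2%, on CPM plus 1, for 27 genes in each WT and Het library. Points are libraries and black lines are means. Epyc, Scrg1 and Ucma lie above 0 and Gdf5, Erg, Matn2 and Prg4 below 0 in all 8 libraries, while Sox5 and Sox6 lie near 0.

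Col10a1 and Ihh, the genes that define hypertrophic and prehypertrophic cartilage, were close to the limit of detection, while other genes of the hypertrophic list were not, such as Pth1r, the receptor of parathyroid hormone-related protein, at 73.9 to 92.8 CPM. At least 2 UMIs of Col10a1 were found in 1 of 1550 cells of WT S6 and in no cell of the other 7 libraries. A count of 0 allows a share of up to 0.0518% of the 5788 cells of WT S5 and up to 3.37% of the 89 cells of WT S1, so the small libraries bound it far less. These limits hold for cells with at least 2 UMIs of Col10a1 and not for cells that express it, the more so in S5, where most cells were shallow. With 1 UMI of Col10a1 as the limit, 0 to 6 cells per library were found, and the Het share was 0.163 percentage points higher (exact permutation test, two-sided p = 0.0571). In CPM, Col10a1 was at 0 to 0.561 and Ihh, the signal of cells about to become hypertrophic, at 0 to 2.56. Mmp13, Spp1 and Alpl, which mark both late hypertrophic cells and osteoblasts, were lower in the cartilage cells with at least 2000 UMIs than in the other cells of every library, at 0.0241 to 0.159, 0.0290 to 0.0746 and 0.0193 to 0.0869 times the other level. The share with Col10a1 was 0.0161% ± 0.0323 (SD, n = 4) in WT and 0 in all 4 Het libraries (exact permutation test, two-sided p = 1.0), within counting error of a single cell.

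Col1a2, the mutated gene, was detected in these cells, at a higher ratio to Col1a1 than in bone cells. In cells with at least 2000 UMIs, Col1a2 was at 1820, 1244, 1665 and 1600 CPM in WT S1, S2, S5 and S6 and at 1811, 1742, 1179 and 1051 CPM in Het S3, S4, S7 and S8. Col1a1 was at 1109, 694, 1020 and 888 CPM in the WT libraries and at 1246, 1065, 473 and 352 CPM in the Het libraries. The ratio of Col1a2 to Col1a1 was therefore 1.45 to 2.98 in the 8 libraries. It was 0.593 to 0.686 in mature osteoblasts (cells of the osteoblast pattern with Col1a1 over 3.5% of UMIs, 1075 cells), where Col1a2 reached 34369 to 81488 CPM. In haematopoietic-like cells (2420 cells), which are not known as a source of type I collagen, the ratio was 0.438 to 0.891 with Col1a2 at 142 to 2174 CPM. The ratio was higher in the cartilage cells than in both other classes in 8 of 8 libraries. Col1a1 took part in the rule for the cartilage cells and in the choice of the osteoblasts (Col1a1 over 3.5% of UMIs), a selection that can shift the ratio, so the ratios are a description without a test. The part of RNA from other cells was not tested. In the cells above 4% Col2a1, Col1a2 was still at 1029 to 1966 CPM. Reads at the 3′ end of transcripts do not show which allele, or which start site, they came from.

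**Figure D3:**
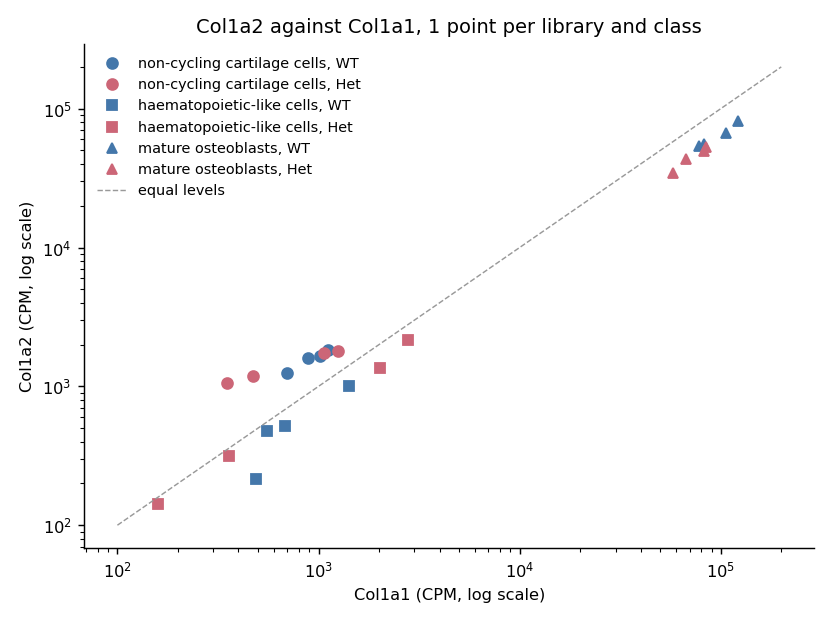
Col1a2 against Col1a1 in CPM, both on log axes, in non-cycling cartilage cells with at least 2000 UMIs (circles), haematopoietic-like cells (squares) and mature osteoblasts (triangles), 1 point per library, with WT in blue and Het in red. The dashed line marks equal levels. The 8 cartilage points lie above it and the 16 others below it.

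The first comparison with genotype asked whether Het libraries held more or fewer of these cells. They made up 1.86%, 2.57%, 50.9% and 32.3% of cells passing quality control in the WT libraries S1, S2, S5 and S6, against 19.8%, 14.1%, 42.6% and 54.4% in the Het libraries S3, S4, S7 and S8. Over both kit versions the ranges overlapped. Within kit version 3 both Het libraries lay above both WT libraries, and within kit version 3.1 they overlapped. The means of 21.9% ± 24.0 (SD, n = 4) and 32.7% ± 19.0 (SD, n = 4) did not differ beyond the spread (exact permutation test, two-sided p = 0.486, where the smallest possible p is 0.0286). That test took no account of kit version. When labels were permuted within kit versions only, an alternative chosen after the data were seen, p was 0.111, where the smallest possible p is 0.0556. Over all cells, Het minus WT was 14.7 percentage points within kit version 3 and 6.93 within kit version 3.1. In cells of at least 2000 UMIs both Het libraries lay above both WT libraries in each kit version, with 2.11% and 2.86% in the WT against 20.8% and 15.5% in the Het libraries of kit version 3, and 37.2% and 33.8% against 43.8% and 56.5% in those of kit version 3.1. The overlap within kit version 3.1 was thus found with the shallower cells included. In the deeper cells Het minus WT was 15.6 percentage points within kit version 3 and 14.7 within kit version 3.1. Over both kit versions it was 15.2 (exact permutation test, two-sided p = 0.314), and permuted within kit versions, also chosen after the data were seen, p was 0.0556, the smallest possible, so that this test could not pass 0.05. Thinned to 2000 UMIs, the difference was 15.5 percentage points with the same p within kit versions. Among cartilage cells, 87.2% ± 5.21 (SD, n = 4) were outside the cell cycle in WT and 90.4% ± 2.08 (SD, n = 4) in Het (exact permutation test, two-sided p = 0.314). Libraries of kit version 3 differed by 6.23 percentage points and those of kit version 3.1 by 0.0856. The difference turned to -2.40 when cells with at least 3 markers of another class were left out, which dropped WT S2 and left 12 cells in WT S1, all of them outside the cell cycle.

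Few genes differed between Het and WT non-cycling cartilage cells. Of 14101 genes tested on summed counts by edgeR's quasi-likelihood test, 14 (0.0993%) had a Benjamini-Hochberg adjusted p under 0.05, with 5 higher in Het and 9 lower. At an unadjusted p under 0.05 there were 882. The abundant genes that changed were Tagln2 and Csrp2, which were lower, and Sfrp1, Wnk2 and Slc27a6, which were higher. They were named for being called, at 20 CPM or more and without overlap of WT and Het within either kit version, so the absence of overlap is no finding. All 5 were also called when cells under 2000 UMIs, most of them from WT S5, were left out.

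Tagln2 (chromosome 1, 172500047 to 172507380 of GRCm38), which encodes the actin-binding protein transgelin-2, stood at 136, 114, 106 and 97.9 CPM in WT S1, S2, S5 and S6 and at 63.8, 79.5, 66.6 and 65.3 CPM in Het S3, S4, S7 and S8. The groups did not overlap, and Tagln2 fell by 0.69 ± 0.08 (SE) on the log2 scale (edgeR adjusted p = 0.00602). It fell in both kit versions, by 0.79 and 0.65, and its call held without any 1 of the 8 libraries. When each cell was thinned to 2000 UMIs the difference was -0.41 and was not called, nor was that of -0.56 without the cells that bore markers of another class. Csrp2 (chromosome 10, 110919789 to 110939622), the gene of a cytoskeletal LIM domain protein, stood at 296, 298, 180 and 194 CPM in the WT libraries and 191, 218, 129 and 130 CPM in the Het libraries. It was lower in Het within each kit version, and fell by 0.53 ± 0.07 (SE) on the log2 scale (edgeR adjusted p = 0.0150). Its call was lost without WT S6 (-0.51) and without Het S8 (-0.54). Both genes are also expressed outside cartilage, Tagln2 at 236 to 434 CPM in the other cells of WT libraries and 346 to 379 CPM in those of Het libraries, and Csrp2 at 72.5 to 271 CPM and 228 to 348 CPM.

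Sfrp1 (chromosome 8, 23411502 to 23449632), which encodes a secreted antagonist of Wnt signalling, stood at 17.2, 24.3, 21.2 and 24.1 CPM in WT S1, S2, S5 and S6 and at 43.1, 40.0, 41.4 and 34.7 CPM in Het S3, S4, S7 and S8. The groups did not overlap, and it rose by 0.79 ± 0.11 (SE) on the log2 scale (edgeR adjusted p = 0.0189), from 17 UMIs in S1 and 27 in S2. The other cells of the same libraries also held more Sfrp1 in Het within each kit version, at 11.4 and 3.48 CPM in WT S1 and S2, 47.3 and 44.3 CPM in Het S3 and S4, 6.23 and 5.98 CPM in WT S5 and S6 and 9.78 and 15.8 CPM in Het S7 and S8, and their part in the change was not tested. The call was lost without Het S4 (0.79), WT S5 (0.73) or Het S7 (0.72). Slc27a6 (chromosome 18, 58556257 to 58612773), a fatty acid transport protein gene that was also detected in the other cells, stood at 44.5, 36.9, 121 and 126 CPM in the WT libraries and at 61.9, 64.8, 163 and 176 CPM in the Het libraries. It rose by 0.50 ± 0.07 (SE) (edgeR adjusted p = 0.0298), a call that was lost, at 0.46 to 0.54, when any library other than Het S7 was left out. In the other cells Slc27a6 was also higher in Het within each kit version, at 0.445 and 0.117 CPM in WT S1 and S2, 2.20 and 2.35 CPM in Het S3 and S4, 10.2 and 8.48 CPM in WT S5 and S6 and 17.6 and 17.5 CPM in Het S7 and S8. Wnk2, a kinase gene, rose by 0.60 ± 0.08 (SE) (edgeR adjusted p = 0.0234), from 11.1, 10.8, 24.8 and 26.2 CPM to 17.2, 20.01, 37.0 and 39.4 CPM. Its call was lost without Het S4, WT S5, WT S6, Het S7 or Het S8, at 0.57 to 0.65. It too was higher in Het in the other cells, at 0.696 and 0.380 CPM against 5.00 and 3.77 CPM with kit version 3 and at 14.5 and 14.8 CPM against 31.6 and 36.1 CPM with kit version 3.1. The part of the other cells in these changes was not tested. With libraries paired by their number within each kit version as a replicate block, the calls of Sfrp1 (0.80), Wnk2 (0.60) and Slc27a6 (0.51) were also lost, with adjusted p of 0.0515 to 0.0618, while Tagln2 and Csrp2 kept theirs.

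**Figure D4:**
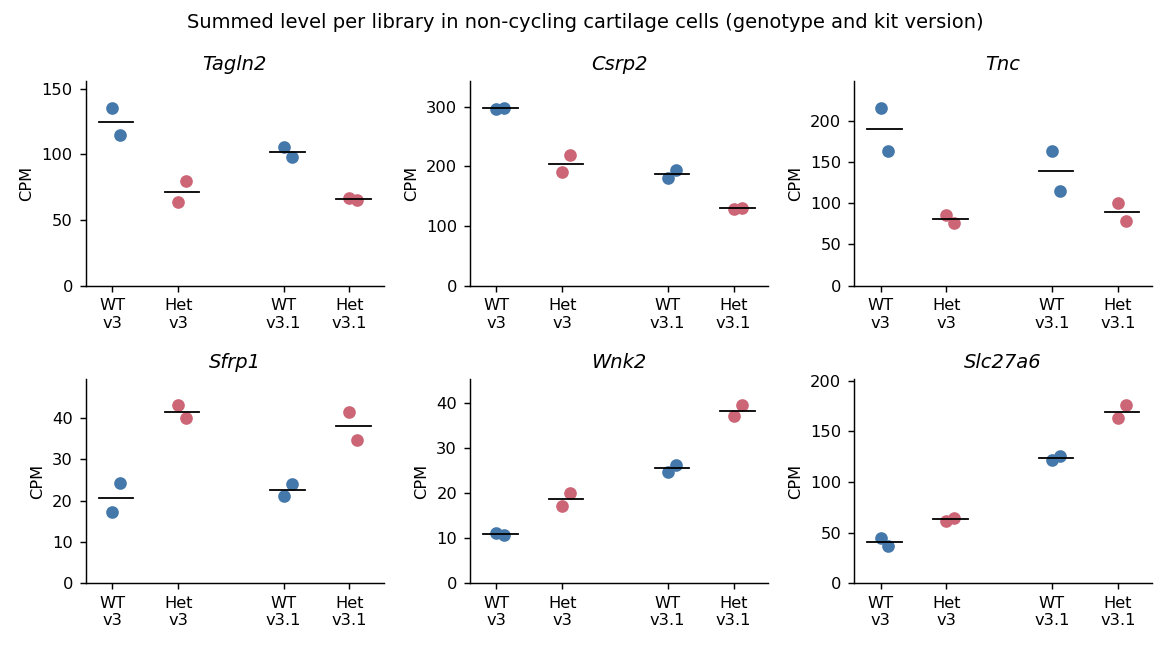
CPM of 6 genes in the summed non-cycling cartilage cells of each library, by genotype and kit version, with WT in blue and Het in red. Black lines are means of 2 libraries. Tagln2, Csrp2 and Tnc are lower and Sfrp1, Wnk2 and Slc27a6 higher in both Het libraries than in both WT libraries of the same kit version. Tnc was not called.

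Most of the other genes called lower in Het were genes of neutrophils and their precursors at very low levels. Ngp, Camp, Ltf, Stfa3 and Olfm4 had 2 to 91 UMIs in a WT library and 0 to 17 in a Het library. Ngp, which encodes neutrophilic granule protein, had 8, 8, 79 and 67 UMIs in the 4 WT libraries, in order of number, against 2, 6, 2 and 2 in the 4 Het libraries (log2 difference -4.34 ± 0.44 (SE), edgeR adjusted p = 0.00594). Camp, the cathelicidin gene, differed by -3.40 ± 0.36 (SE) with the same adjusted p. In the other cells of the same libraries Ngp was at 65.5 to 3144 CPM in WT and at 27.3 to 274 CPM in Het. The 11 haematopoietic markers summed to 183 to 882 CPM in the cartilage cells of WT S1 and S2 and to 89.8 to 91.1 CPM in those of Het S3 and S4, and to 60.1 to 121 CPM and 27.8 to 49.6 CPM in WT and Het with kit version 3.1. When cells with at least 3 markers of another class were left out, which removed WT S2 altogether, Ngp (-3.16) and Camp (-1.23) were not called. Car2, carbonic anhydrase 2 of red cells and osteoclasts, was also lower, by 3.01 on the log2 scale (edgeR adjusted p = 0.0415), and lost its call in 13 of its 23 alternatives. The 6 erythroid markers summed to 822 to 7188 CPM in the cartilage cells of WT S1 and S2, 1209 to 1425 CPM in WT S5 and S6, 1676 to 2771 CPM in Het S3 and S4 and 45.5 to 307 CPM in Het S7 and S8. At least 3 of them were detected in 85.4% of these cells in WT S1 and in all of them in WT S2. Osteoblast markers moved with genotype as well. The 4 that the rule did not use, Bglap, Bglap2, Ifitm5 and Dmp1, were all lower in Het, with a median log2 difference of -1.98 and 0 called, and their median was -2.83 with kit version 3.1 alone, while 2 of the 3 tested were higher with kit version 3 alone. Bglap, the osteocalcin gene of mature osteoblasts, was at 31.4, 5.41, 62.5 and 16.9 CPM in the WT libraries and at 8.96, 8.52, 3.03 and 2.46 CPM in the Het libraries (log2 difference -3.13 ± 0.58 (SE), edgeR adjusted p = 0.102). In cells of at least 2000 UMIs it was called, at -2.46 ± 0.34 (SE) (edgeR adjusted p = 0.0101). At least 3 of the 7 osteoblast markers, rule genes included, were detected in 8.74% and 9.94% of cells in WT S5 and S6 and in 1.81% and 1.67% in Het S7 and S8, against 0.820% to 3.37% in the libraries of kit version 3. The part of cells of other classes or their RNA in the differences was not tested.

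The remaining 3 called genes, Grm7, Capn11 and Gm10563, had 0 or 1 UMI in each library of kit version 3, so their calls rest on 2 WT against 2 Het libraries. Gm10563 rose from 18.7 and 18.2 CPM in WT S5 and S6 to 32.3 and 32.2 CPM in Het S7 and S8. The other cells of these libraries held it at 12.8 and 17.3 CPM in WT and 27.1 and 37.4 CPM in Het. Capn11 was also higher there in Het, at 9.67 and 4.31 CPM against 1.32 and 1.14 CPM in WT. Grm7 was lower there in Het, at 13.0 and 17.0 CPM against 44.8 and 53.5 CPM in WT. The part of the other cells in these differences was not tested. Among genes that did not pass the test, the lowest p-values with the same order in both kit versions belonged to Tnc, Igfbp4 and S100a9 below 0 and to Dlk1 and Sema3c above 0. Tnc, which encodes the matrix protein tenascin-C, was at 215, 163, 164 and 115 CPM in the WT libraries and 85.4, 75.4, 100.3 and 78.3 CPM in the Het libraries (log2 difference -0.88 ± 0.15 (SE), edgeR adjusted p = 0.0726). WT S5 was at 119.9 CPM, and the difference at -0.73, without cells under 2000 UMIs. Dlk1, a membrane protein of the Notch ligand family, was at 969, 1179, 1550 and 1565 CPM and at 1459, 1376, 2118 and 2174 CPM (log2 difference 0.44 ± 0.08 (SE), edgeR adjusted p = 0.0977).

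With both kit versions in the fit no gene of the cartilage lists was called, which at the 0.0993% called over all genes says nothing particular to any list. With kit version 3 alone, where 0.457% of all genes were called, 3 of their genes were called higher in Het, namely Epyc (0.72), Igf1, a growth factor gene (1.58), and Col3a1, a collagen gene of perichondrium and other connective tissue (0.87). Their values with kit version 3.1 alone were 0.04, -1.38 and -1.15. All 6 collagens of cartilage other than Col2a1 had small positive differences, 0.07 to 0.11 on the log2 scale, with SEs of 0.06 to 0.07 and a median of 0.086 (0.04 to 0.09 in cells of at least 2000 UMIs), against a median of 0.011 over all genes tested. Of 20 genes of proteoglycans and other matrix proteins, 12 were above and 8 below 0, with a median of 0.02 and 0 called. Ucma was at 0.35 ± 0.10 (SE), 0.54 in kit version 3 and 0.13 in kit version 3.1 (edgeR adjusted p = 0.518). Sox9 was at 0.19 ± 0.08 (SE) and Acan at -0.04 ± 0.09 (SE) (edgeR adjusted p = 0.779 and 0.9998). Col1a2 itself was at -0.29 ± 0.20 (SE), 0.23 among the older and -0.82 among the newer libraries (edgeR adjusted p = 0.871). In cells of at least 2000 UMIs, which lowered WT S5 from 2279 to 1665 CPM, Col1a2 was at -0.17 ± 0.15 (SE), with -0.58 among the newer libraries (edgeR adjusted p = 0.929). None of 16 genes of collagen folding and export and none of 20 genes of the unfolded protein response of the endoplasmic reticulum was called, with medians of -0.04 and 0.06. Hspa5, the main chaperone of that compartment, was at 0.10 ± 0.07 (SE). At an unadjusted p under 0.05, 0.0407 for Sox9 was the lowest among the 3 markers Acan, Sox9 and Matn1.

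The integrated stress response, in which ATF4 and related factors raise amino acid synthesis and transport genes, was compared with mature osteoblasts of the same libraries, which had the higher level of Col1a2. In Het mature osteoblasts 15 of the 37 listed genes that could be tested were called higher and 0 lower, with a median log2 difference of 0.90, where 52 of 10033 genes (0.518%) were called in all. In non-cycling cartilage cells, where 0.0993% of all genes were called, 0 of 37 were called, as that share alone would give, 13 were above and 24 below 0, and the median was -0.06. With kit version 3 alone, 1 of 34 was called higher, Ppp1r15a (1.04, and -0.04 with kit version 3.1), and 1 lower, Nupr1 (-0.93, and -0.32 with kit version 3.1). The list was drawn in part from genes that the study picked in these libraries, so its rise in osteoblasts is not independent evidence. Atf5, a transcription factor of this response, was at 51.6, 55.0, 40.3 and 39.7 CPM in WT cartilage cells (S1, S2, S5, S6) and at 42.3, 39.5, 40.7 and 40.0 CPM in Het cartilage cells (S3, S4, S7, S8). In mature osteoblasts it was at 43.8, 39.8, 21.8 and 30.2 CPM in WT and at 240, 198, 66.5 and 123 CPM in Het. In osteoblasts both Het libraries lay above both WT libraries in each kit version. In cartilage both Het libraries lay below both WT libraries in kit version 3, and the groups overlapped in kit version 3.1.

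The difference between the 2 cell classes was tested as a genotype by class term with the library as a block. Of 12662 genes, 11 (0.0869%) were called, 5 with the more positive Het difference in cartilage cells and 6 with the more positive one in osteoblasts, and 1219 had an unadjusted p under 0.05. Atf5 and Asns, asparagine synthetase, were the 2 called genes of the stress response list. The Het difference of Atf5 was -0.10 ± 0.08 (SE) in cartilage cells and 2.03 ± 0.21 (SE) in mature osteoblasts, and the 2 differed by -2.10 ± 0.26 (SE) (edgeR adjusted p = 0.0143). For Asns the values were -0.23 ± 0.12 (SE) and 2.34 ± 0.25 (SE), and they differed by -2.46 ± 0.31 (SE) (edgeR adjusted p = 0.0143). Of the 38 listed genes tested, 33 had the lower Het difference in cartilage cells, with a median of -0.97 against 0.016 over all genes. The list was drawn in part from genes that the study picked in these libraries. That choice favours a lower Het difference in cartilage cells than in osteoblasts. The count, the median and the calls of Atf5 and Asns are thus not independent evidence. Nars, Slc7a5, Eif4ebp1, Gars and Eif3c just missed the threshold, with adjusted p of 0.0576 to 0.0587. Without WT S1, WT S2 or Het S4 none of the 11 genes was called, and Atf5 stood at -1.98, -1.92 and -2.05 and Asns at -2.21, -2.34 and -2.34. Leaving out each of the other libraries gave 3 to 45 calls.

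**Figure D5:**
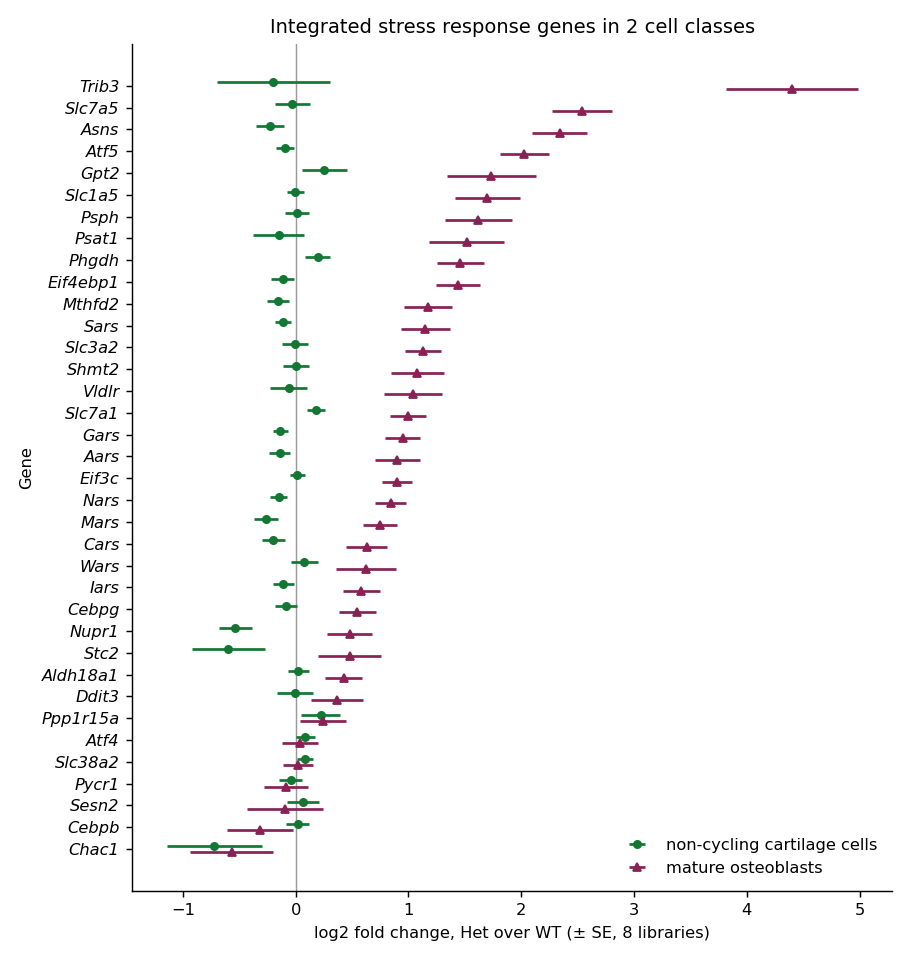
Log2 fold change of Het over WT ± SE, from 4 WT and 4 Het libraries, for the 36 listed integrated stress response genes tested in both cell classes, in non-cycling cartilage cells (green circles) and mature osteoblasts (purple triangles). The cartilage values lie between -0.72 for Chac1 and 0.25 for Gpt2, while those of osteoblasts lie between -0.57 for Chac1 and 4.40 for Trib3.

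Of the other genes in this comparison, Fos and Wif1 also belonged to the gene lists. Wif1, a secreted Wnt inhibitor, was at -0.31 ± 0.10 (SE) in cartilage cells and -1.23 ± 0.16 (SE) in osteoblasts, and the 2 differed by 0.89 ± 0.13 (SE) (edgeR adjusted p = 0.0268). Its call was lost without WT S1, WT S2, Het S3, Het S4 or WT S6, at 0.84 to 0.89. Vdr, the vitamin D receptor gene, was at 17.1 to 20.01 CPM in the cartilage cells of all 4 libraries of kit version 3.1 and at 10.7 to 11.1 CPM in those of kit version 3, with a Het difference of -0.08 ± 0.10 (SE), against -1.09 ± 0.12 (SE) in osteoblasts. The difference of 1.06 ± 0.15 (SE) was called (edgeR adjusted p = 0.0259).

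Immediate early genes, which cells switch on within minutes of a stimulus, behaved differently in the 2 kit versions. Fos was at 248 and 214 CPM in WT S1 and S2 and at 742 and 804 CPM in Het S3 and S4, but at 2585 and 3016 CPM in WT S5 and S6 and at 1915 and 2899 CPM in Het S7 and S8. With kit version 3 alone, 8 of 14 listed genes tested were called higher and 1 lower in Het, where 49 of 10729 genes (0.457%) were called in all. With kit version 3.1 alone, 0 of 15 were called and 14 were below 0, where 0 of 15084 genes were called and 1230 had an unadjusted p under 0.05. Over both kits together 0 of 15 were called. A test of the genotype by kit version term, chosen after these values were seen, called 7 of 14578 genes (0.0480%), and 4 of them were Egr1, Fos, Junb and Ier2. The others were Col8a1, Igf1 and Tnfrsf12a. For Fos the Het difference in kit version 3.1 minus that in kit version 3 was -2.004 ± 0.24 (SE) (edgeR adjusted p = 0.0266), and for Egr1 it was -2.17 ± 0.26 (SE) with the same adjusted p. The rise of these genes in Het cartilage cells was thus found in 1 of the 2 kit versions. Kit version, counting software and the pools of pups cannot be told apart. In the test against mature osteoblasts, Fos had a Het difference of 0.70 ± 0.33 (SE) in cartilage cells (edgeR adjusted p = 0.797) and fell in Het osteoblasts, by 1.16 ± 0.19 (SE) on the log2 scale (edgeR adjusted p = 0.0196). The 2 differed by 1.96 ± 0.27 (SE) (edgeR adjusted p = 0.0259), and that call was lost without WT S1, WT S2, Het S3 or Het S4, at 1.72 to 1.88.

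The last comparison asked whether Het differences depended on the cell cycle, with cartilage cells in which at least 2 of the 6 cycle genes were detected (1375 cells, 12 to 381 per library) as the nearest other class. Of 13447 genes, 9 (0.0669%) were called and 536 had an unadjusted p under 0.05. Of the 9, 4 were Cd74, H2-Aa, H2-Ab1 and H2-Eb1, genes of antigen presentation by immune cells. Cd74 was at 0 to 9.17 CPM in the non-cycling cells of all 8 libraries and at 104 and 83.1 CPM in the cycling cells of WT S5 and S6, against 3.83 to 18.4 CPM in the cycling cells of the other 6. When cells with at least 3 markers of another class were left out, 6 libraries were kept. WT S1 and S2 were dropped, so no WT library of kit version 3 was left. In that fit 0 genes were called and 428 had an unadjusted p under 0.05. DESeq2 called 1 gene on all cells. No gene of the cartilage matrix, transcription factor, stress response or signalling lists was called in this comparison. Col1a1 was among the 9, but it takes part in the rule.

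The pools of pups differed in their mix of sexes. Ddx3y, a gene of the Y chromosome, was at 38.4, 0, 20.5 and 54.2 CPM in WT cartilage cells (S1, S2, S5, S6) and at 79.7, 1.48, 0.510 and 1.08 CPM in Het cartilage cells (S3, S4, S7, S8). With kit version 3.1 both WT pools had Ddx3y at 20.5 CPM or more and both Het pools at 1.08 CPM or less, so sex and genotype moved together there, and the part of sex in the differences was not tested.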

How the data were processed

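Single-cell RNA of parietal bone was counted in 8 droplet libraries. The deposited matrices hold raw UMI counts per gene and cell for 31053 genes, made by the authors with Cell Ranger (5.0.0 for S1 to S4 and 6.0.1 for S5 to S8 per the file headers), and the submitters' processing notes name the build mm10. The files give no cell type annotation. The cartilage cells, gene lists and comparisons were chosen with earlier results of these data known. Doublets were kept, and an alternative dropped cells that showed 3 or more markers of another class.

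UMIs were summed per library over the chosen cells (988424 to 33354359) and tested with edgeR 4.0.16 (filterByExpr, TMM, glmQLFit, glmQLFTest; terms for genotype and kit version), called at a Benjamini-Hochberg adjusted p under 0.05. The fits were also run on simulated counts with known changes, drawn without a kit version effect, so that run does not cover such an effect. Standard errors come from the fold change and F. CPM are per 1000000 UMIs of the summed cells. Named genes were, per direction, up to 10 called genes with a mean of at least 20 CPM and no overlap of WT with Het within either kit version, filled to 5 with the lowest p, the called genes of the lists, and the 20 most abundant genes. Those outside this rule (Vdr, Bglap, the list genes called with kit version 3 alone, the antigen presentation genes and the remaining called genes) were named after their values were seen. Shares were compared by exact permutation over the 70 assignments of 4 and 4 libraries. Intervals (exact binomial, 95%) and floors (3 counts) cover counting error only. Nothing says that pools were independent beyond the library, so p-values measure the spread between libraries. Of the gene IDs, 30934 were found in GENCODE M21 (GRCm38), the source of coordinates.

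Alternatives were DESeq2, RLE size factors, no filter, no kit term, a replicate block, each kit alone, each library left out, Col2a1 over 2% or 0.5%, no cycle gene, under 5% mitochondrial UMIs, thinning to 2000 UMIs, and, added after the data were seen, cells of at least 2000 UMIs, a marker filter without the erythroid class, and shares permuted within kit version, which the main test of shares ignored.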

Additional observations from a re-analysis of the deposited data

Results flagged for a closer look

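Single libraries stood far from the rest of their group in 5 values, by Dixon's test at the 95% level, which flags about 1 in 20 groups by chance. In WT S5, Acan was detected in 76.2% and Sox9 in 47.1% of non-cycling cartilage cells. Col10a1 was found in 0.0645% of these cells in WT S6. Ltf was at 0.556 CPM in Het S4 and Olfm4 at 0.0308 CPM in Het S8, each from at most 3 UMIs.

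The Het difference in cartilage cells minus that in mature osteoblasts passed the test for 11 genes, as log2 values. It was negative for Atf5 (-2.10), Asns (-2.46), Ank2 (-1.46), Map1b (-1.48), Anxa1 (-0.98) and Jdp2 (-1.01), and positive for Fos (1.96), Vdr (1.06), Gm26802 (6.65), Wif1 (0.89) and Sned1 (1.99). Gm26802 had 0 UMIs in the osteoblasts of 3 Het libraries, so the size of its value depends on the prior count. None of the 11 was called without WT S1, WT S2 or Het S4.

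The Het difference in non-cycling minus that in cycling cartilage cells passed the test for Cd74 (4.12), H2-Aa (4.42), H2-Ab1 (4.09), H2-Eb1 (3.95), Rgcc (1.62), Magi1 (0.94), Ndc80 (-1.39) and Col25a1 (-0.71). None was called once cells bearing markers of another class were left out.

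The Het difference in cartilage cells with kit version 3.1 minus that with kit version 3 passed the test for 7 genes. It was negative for Egr1 (-2.17), Fos (-2.004), Junb (-1.79), Ier2 (-1.70), Col8a1 (-2.97) and Igf1 (-2.98) and positive for Tnfrsf12a (1.90).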

How the results depend on the processing

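The 14 genes called between Het and WT became 31 with DESeq2, 58 without a filter on low counts, 0 without kit version as a term, 49 with kit version 3 alone, 0 with kit version 3.1 alone, 29 with Col2a1 above 2%, 32 with no cell cycle gene detected, 35 after thinning, 25 without cells bearing markers of another class and 6 when erythroid markers were not counted among those. Leaving out 1 library gave 4 to 17, with 6 without Het S4, WT S5 or WT S6 and 4 without Het S8. Tnc and Igfbp4 were called by DESeq2 and in other alternatives. Of 23 alternatives each, Tnc was called in 8, S100a9 in 6, Igfbp4 in 5, Dlk1 in 5 and Sema3c in 2. Replicate numbers did not pair the libraries (correlation of deviations -0.0944 and 0.0464 in the 2 kit versions), and the replicate block gave 9 calls. The 11 genes that differed from osteoblasts became 61 with DESeq2, 357 without a filter, 25 in cells of at least 2000 UMIs, 17 after thinning and 0 to 45 with 1 library left out. The 9 that differed from cycling cells became 1 with DESeq2, 96 without a filter, 1 with Col2a1 above 2%, 0 without cells bearing other markers, 22 in cells of at least 2000 UMIs, 0 after thinning and 9 to 22 with 1 library left out. The difference in the share outside the cell cycle was -2.40 percentage points without cells bearing other markers and 9.76 with no cycle gene detected, and that in Col10a1 0.163 with 1 UMI. With 1 library left out, the 3 differences in shares were 3.57 to 20.5, 1.19 to 5.35 and -0.0215 to 0. The causes were not tested. Of 468 alternative values for the 23 single-gene results, 317 kept direction and side of the threshold, 125 lost the call, 26 gained it and 0 reversed. The 89 and 122 cells of WT S1 and S2 limit every comparison within kit version 3.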
